A study of Platichthys stellatus with 16 samples.

Results

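The early-response genes fos, Gadd45g, Klf16 and id3-a made up 4 of the 16270 genes assembled from RNA-seq reads of Platichthys stellatus, the starry flounder, a marine flatfish. A feature was taken when the gene name of its closest Swiss-Prot protein, or failing that its first KEGG ortholog name, was one of the 4. Each name matched exactly 1 assembled feature, so no second copy had to be kept or dropped. The libraries came from male and female fish, all 3 years old, in 8 groups of 2 libraries: male liver and female liver, male brain and female brain, male gonad and female gonad, and male muscle and female muscle. No treatment or genotype is given, and the labels do not say which fish stands behind a library, so p-values measure the spread between these libraries. The series text names pituitary where the sample labels name muscle, and the sample labels were followed.

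The 4 genes were selected on their FPKM and counts in male against female liver in these same libraries. Their levels in liver are therefore a description without a test. The tests of the 4 genes below compare the 12 libraries of brain, gonad and muscle, in a fit over all 16 libraries whose scaling and spread also draw on liver. Other genes are tested in liver as well. Levels are the authors' FPKM, a read density scaled for gene length and for the fragments in the library. Tested differences are log2 differences, male minus female or the first tissue minus the second, ± SE, from read counts scaled between libraries by TMM. Adjusted p-values are from edgeR's quasi-likelihood test with Benjamini-Hochberg adjustment over all 16270 features, and a difference passed at an adjusted p below 0.05.

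Immediate early genes are switched on by transcription factors already present in the cell, so their RNA can climb soon after a stimulus and without new protein. Many of the messages are short-lived, and several of the proteins act to shut the response down again. In vertebrate tissues handling, stress hormones, feeding, growth factors and injury are all known to raise them. Fos pairs with Jun proteins to form AP-1, a transcription factor that binds DNA as a dimer. Gadd45g belongs to a small family of stress sensors that bind cell cycle proteins and an upstream kinase of the p38 and JNK pathways. Klf16 is a zinc finger factor of the Krueppel-like family, which binds GC-rich promoter elements. Id3 lacks a DNA-binding region and holds helix-loop-helix factors away from DNA, and in mammals its family responds to bone morphogenetic proteins.

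The annotation fitted the names to different degrees. The fos feature (TRINITY_DN123156_c0_g1, 2618 bases) had its closest Swiss-Prot match in the c-Fos of a pufferfish (E-value 1.4e-52). Gadd45g (TRINITY_DN127067_c2_g1, 1722 bases) matched the rat protein (8.0e-20). The id3-a feature (TRINITY_DN126877_c3_g3, 2893 bases) matched the Id3-A protein of Xenopus (1.3e-27), and its protein domain call, a helix-loop-helix, belongs to that family, as the zinc fingers called in Klf16 do to its own. The domain calls for fos and Gadd45g, a tyrosine phosphatase and a diapausin, do not belong to those proteins. Klf16 also had a call that does not belong to its family, a spore germination protein. Klf16 (TRINITY_DN139865_c0_g1, 6116 bases) matched the mouse protein (1.0e-37), but its KEGG entry covers several Krueppel-like factors and its closest nucleotide match was a klf9 mRNA of another fish. Which member of that family it is cannot be settled from the table.

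In liver, fos was read at 625.71 and 130.36 FPKM in males and at 3.35 and 6.68 FPKM in females. The higher male library held 15715 reads of fos and the other 3587, against 65 and 124 reads in the female libraries. Of all 16270 features, fos had the largest difference toward male liver, 70.2-fold by counts. Gadd45g stood at 1070.36 and 389.67 FPKM in male liver and at 17.89 and 17.36 FPKM in female liver, 36.7-fold by counts and at place 3 in that order. The female pair was tight and the male pair was wide.

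Klf16 was at 103.41 and 30.09 FPKM in male liver and at 1.45 and 1.84 FPKM in female liver, 28.7-fold by counts and at place 6. The id3-a feature was at 285.74 and 252.1 FPKM in males and at 20.45 and 41.85 FPKM in females, 7.99-fold by counts, at place 110. Both male libraries lay above both female libraries for each of the 4, as they did for 28.1% of all features in liver, and 2.78% of all features passed the test there. For id3-a the spread lay in the female pair, and the male libraries were within 1.13-fold of each other. These values chose the genes, and nothing is read from their size.

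The male liver libraries did not carry the signal alike. Male liver 1 exceeded male liver 2 by 4.8-fold for fos, 3.44-fold for Klf16 and 2.75-fold for Gadd45g in FPKM, but by 1.13-fold for id3-a. Without male liver 1 the log2 difference was 4.45 for fos, 4.16 for Gadd45g, 3.57 for Klf16 and 2.79 for id3-a, against 6.13, 5.20, 4.84 and 3.00 with both libraries. Over all features the median log2 difference between the male liver libraries, 1 minus 2, was 0.01. For each of the 4 genes the lower male library lay above both female libraries, as for 28.1% of all features. These values chose the genes, so this is a description only.

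**Figure D1:**
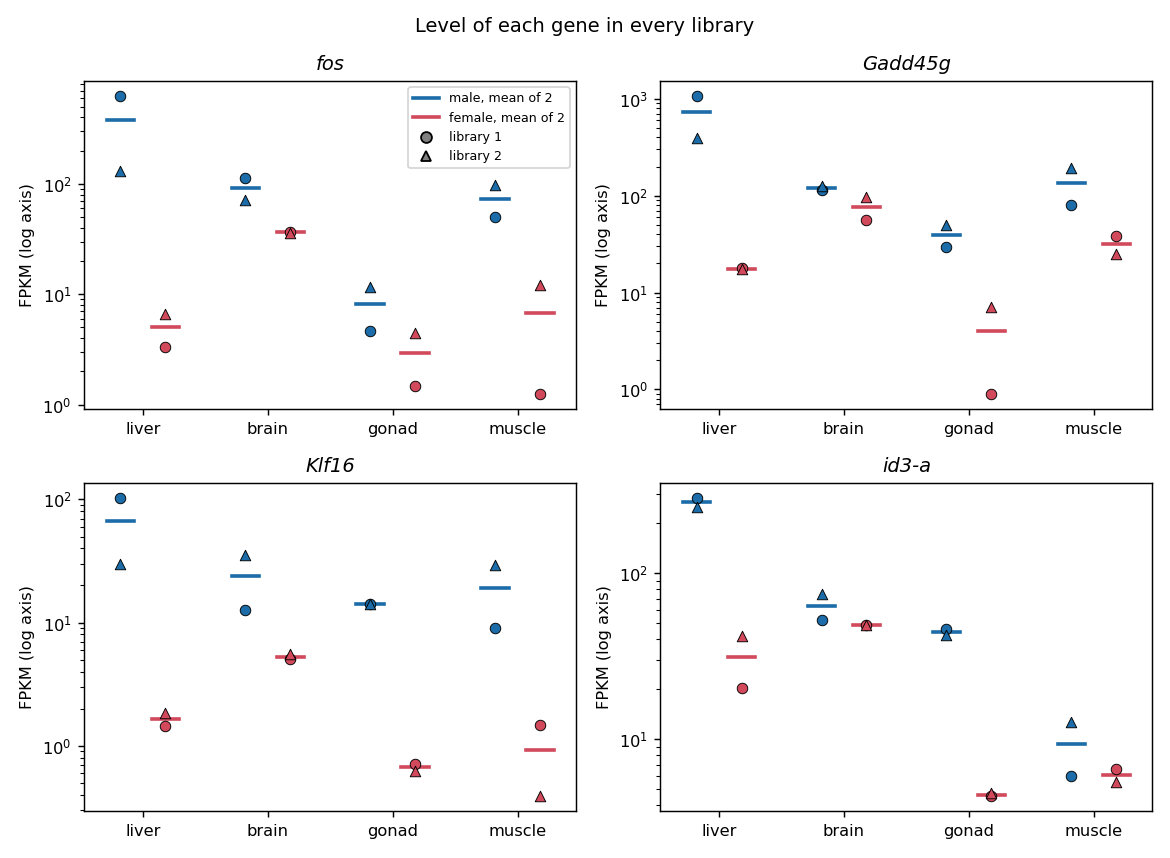
FPKM (log axis) of each of the 4 genes in every library, by tissue, with male libraries in blue left of female libraries in red; circles are library 1, triangles library 2 and bars the mean of 2. Male liver is the highest group for each gene, with fos at 625.71 and 130.36 FPKM, and the female gonad is the lowest group for each.

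Across the 8 groups, male liver had the highest mean for each gene and female gonad the lowest, in FPKM and in TMM-scaled counts. The orders between these ends are given in FPKM and in part changed with TMM scaling. For fos the order after male liver (378 ± 350 FPKM, mean ± SD, n = 2 here and below) was male brain at 92.7 ± 30 and male muscle at 73.4 ± 33.1, whose libraries overlapped. Female brain followed at 36.5 ± 0.41, apart from its neighbours. The 4 lowest groups, male gonad (8.17 ± 5.02), female muscle (6.71 ± 7.73), female liver (5.01 ± 2.35) and female gonad (2.96 ± 2.1), each overlapped the next. From lowest to highest library fos ranged 505-fold.

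Gadd45g followed much the same order. After male liver (730 ± 481 FPKM) came male muscle (136 ± 78) and male brain (120 ± 6.36), which overlapped. Then came female brain (75.9 ± 28.4) and, overlapping each other, male gonad (39.4 ± 14.1) and female muscle (31.6 ± 9.68). Female liver (17.6 ± 0.375) and female gonad (4.03 ± 4.43) stood apart at the low end. Gadd45g had the widest range of the 4 genes, 1203-fold between libraries.

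In FPKM, Klf16 separated the sexes in a single order. Its 4 male groups, at 66.8 ± 51.8 FPKM in liver, 23.9 ± 15.8 in brain, 19.2 ± 14.3 in muscle and 14.1 ± 0.0354 in gonad, ranked above the 4 female groups. Those were female brain (5.27 ± 0.354), female liver (1.65 ± 0.276), female muscle (0.93 ± 0.764) and female gonad (0.665 ± 0.0636). The lowest male library, at 9.07 FPKM in muscle, lay above the highest female library, at 5.52 FPKM in brain. Neighbours within the male groups overlapped, as did female liver with female muscle and female muscle with female gonad. In TMM-scaled counts, taken relative to library size, the libraries of the sexes were not fully apart. Male gonad 2, at 50.1, lay just below female brain 1, at 50.4. The means of these groups, 52.4 in male gonad and 48.0 in female brain, kept their order. The order includes the liver libraries that chose the gene, and its share among all features was not counted. The 5 named features most like Klf16, given below, also had each male group mean above each female group mean. They were picked for likeness to Klf16 over the same libraries, so this is in part built in. For SLC7A1 the lowest male mean was 24.5 FPKM in muscle and the highest female mean 8.75 FPKM in brain.

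The id3-a feature was ordered partly by tissue. After male liver (269 ± 23.8 FPKM) came male brain (63.4 ± 15.8), female brain (49.1 ± 0.0636), male gonad (44.2 ± 2.76) and female liver (31.1 ± 15.1), each apart from the next. The gap between male gonad and female liver was narrow, at 42.21 against 41.85 FPKM. Both muscle groups were low, at 9.4 ± 4.77 in males and 6.05 ± 0.778 in females, and overlapped. Female gonad was lowest at 4.63 ± 0.12. Its range between libraries, 62.8-fold, was the smallest of the 4.

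The first tested question was whether the sex difference that chose these genes was also present outside liver. In FPKM both male libraries lay above both female ones in 11 of 12 gene and tissue pairs outside liver, the exception being id3-a in muscle. Such a separation was common in this table. It held for 48.7% of all features in brain, 52.2% in gonad and 43.1% in muscle, so the count by itself says little about the 4 genes.

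In gonad, 3 of the 4 genes were higher in males by the count test and 0 were lower, where 47.1% of all features passed, 23.8% as higher in males and 23.3% as lower. Klf16 stood at 14.05 and 14.1 FPKM in male and at 0.71 and 0.62 FPKM in female gonad, a log2 difference of 3.59 ± 0.71 (adjusted p = 0.0013). The id3-a feature was at 46.11 and 42.21 against 4.55 and 4.72 FPKM, 2.62 ± 0.36 (adjusted p = 1.3e-04). Both pairs of libraries were tight and far apart, and both genes still passed when each gonad library in turn was dropped.

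Gadd45g was at 29.37 and 49.37 FPKM in male gonad and at 0.89 and 7.16 FPKM in female gonad, 2.65 ± 0.74 (adjusted p = 0.01). The female libraries held 12 and 101 reads and differed 8.04-fold in FPKM. The call ended without female gonad 1 (1.84, adjusted p = 0.054) and without male gonad 2 (2.23, adjusted p = 0.056), and the difference was 4.82 without female gonad 2. For fos, at 4.62 and 11.72 FPKM in male and at 1.47 and 4.44 FPKM in female gonad, the difference was 0.81 ± 0.92 (adjusted p = 0.49). Both fos pairs were wide, and the lower male library was close to the higher female one.

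In muscle, 1 of the 4 passed, where 2.96% of all features passed, 1.75% as higher in males and 1.2% as lower. Klf16 was at 9.07 and 29.24 FPKM in male and at 1.47 and 0.39 FPKM in female muscle, a log2 difference of 3.32 ± 0.70 (adjusted p = 0.025). It did not pass without female muscle 2 (2.69, adjusted p = 0.19), without male muscle 2 (2.74, adjusted p = 0.07) or in a fit of the muscle libraries alone (3.36, adjusted p = 0.081). The female libraries held 82 and 22 reads of Klf16.

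For fos in muscle the libraries read 49.98 and 96.86 FPKM in males and 1.24 and 12.17 FPKM in females. The difference of 2.66 ± 0.95 did not pass (adjusted p = 0.14), although male and female libraries were apart. It passed in DESeq2 (2.67, adjusted p = 0.031), in limma on log2(FPKM + 1) (3.70, adjusted p = 0.019) and with libraries scaled by their fragment totals (3.49, adjusted p = 0.028). Leaving out female muscle 1 or female muscle 2 gave 1.78 and 5.26. The fold between the female libraries of fos was its widest in any group. Gadd45g was at 80.54 and 190.9 against 38.44 and 24.75 FPKM, 1.35 ± 0.70 (adjusted p = 0.29). The id3-a feature was at 6.03 and 12.77 against 6.6 and 5.5 FPKM, -0.14 ± 0.34 (adjusted p = 0.85), with male and female libraries overlapping.

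In brain, 0 of the 4 passed by edgeR, and 0 were below an unadjusted p of 0.05, where 39.8% of all features passed, 18.4% as higher in males and 21.4% as lower. DESeq2 also called 0, and limma on log2(FPKM + 1) called Klf16. Klf16 was at 12.73 and 35.14 FPKM in male and at 5.02 and 5.52 FPKM in female brain, 1.35 ± 0.64 (adjusted p = 0.11). The male libraries were far apart and the female ones close together. It passed under limma on log2(FPKM + 1) at 1.83 (adjusted p = 0.039), with scaling by fragment totals at 1.98 (adjusted p = 0.037) and in a fit of the brain libraries alone at 1.55 (adjusted p = 0.032). For fos, at 113.86 and 71.46 against 36.78 and 36.2 FPKM, the difference was 0.76 ± 0.89 (adjusted p = 0.51). Gadd45g, at 115.62 and 124.62 against 55.8 and 95.97 FPKM, differed by 0.09 ± 0.68 (adjusted p = 0.92). In FPKM the male libraries of both genes lay above the female ones. The id3-a feature, at 52.17 and 74.56 against 49.01 and 49.1 FPKM, differed by -0.24 ± 0.33 (adjusted p = 0.58).

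**Figure D2:**
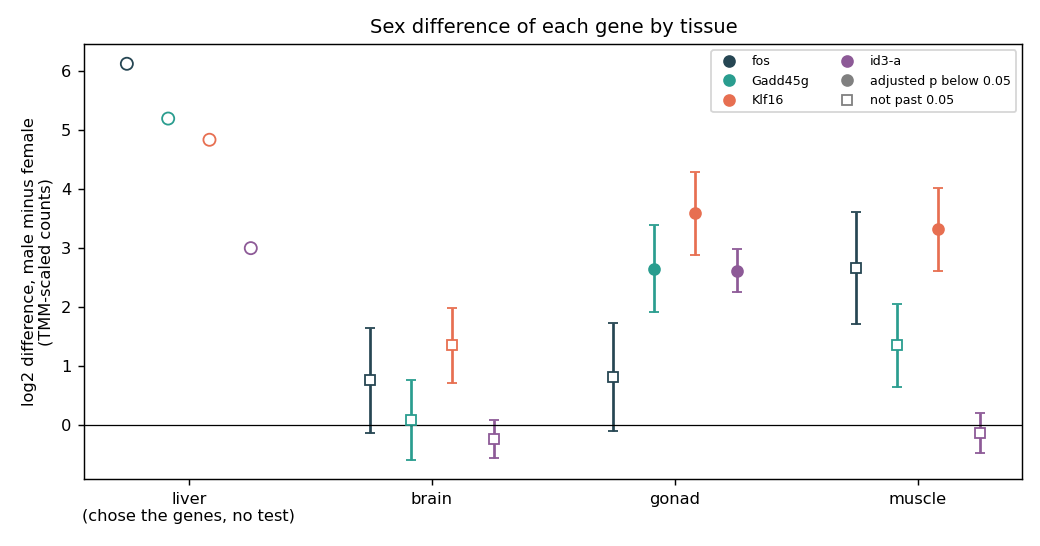
Log2 difference, male minus female (TMM-scaled counts), of each gene in each tissue; bars are the SE from edgeR, filled circles passed an adjusted p of 0.05 and open squares did not. Open circles without bars are liver, where the genes were chosen and no test was made. Klf16 is above 0 in each tissue, at 1.35 in brain, 3.59 in gonad and 3.32 in muscle, while id3-a is at 2.62 in gonad and at -0.24 and -0.14 in brain and muscle.

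The signs of the smaller differences depended on the scaling. With libraries scaled by the fragment totals that counts and FPKM imply, the median log2 sex difference of all features was 0.49 in brain, 0.68 in gonad, 0.73 in muscle and 0.21 in liver, against -0.12, 0.02, 0.02 and -0.03 with TMM. Under that scaling id3-a was at 0.39 in brain and 0.61 in muscle, so its sign turned in both, and both values lay below the median of all features. With TMM the features that passed as higher and lower in males numbered 2996 and 3475 in brain, 3866 and 3795 in gonad, 285 and 196 in muscle and 216 and 237 in liver. By fragment totals the same pairs were 4359 and 1627, 5465 and 1938, 2040 and 103, and 179 and 105. FPKM are relative to the totals, so they follow the second scaling rather than TMM.

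**Figure D3:**
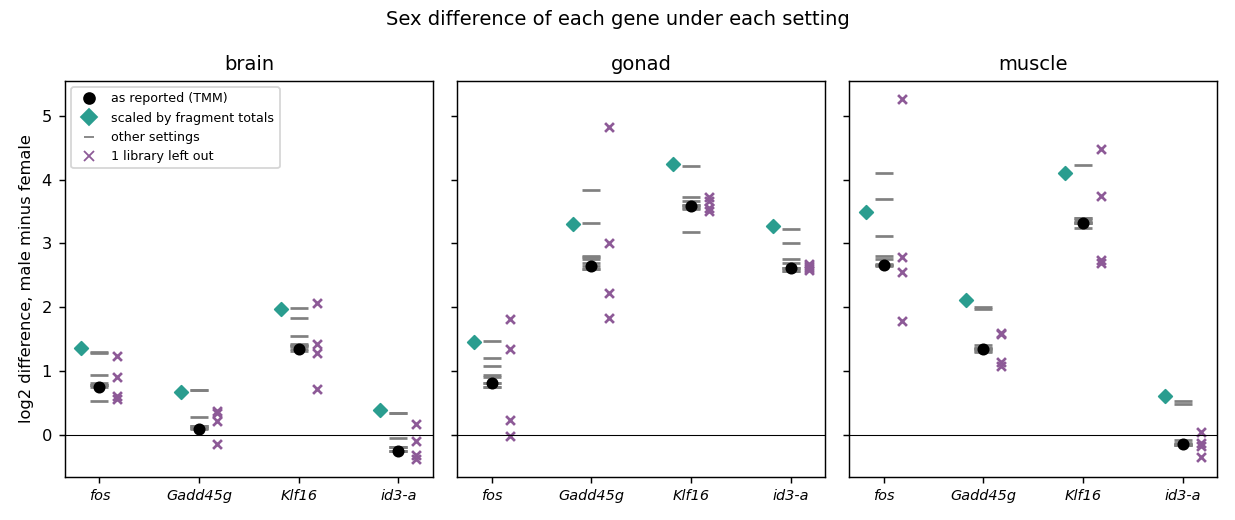
Log2 difference, male minus female, of each gene in brain, gonad and muscle under every setting tried: black circles as reported, diamonds with libraries scaled by fragment totals, dashes the other settings and crosses with 1 library left out. Klf16 and id3-a in gonad keep within 3.18 to 4.25 and 2.57 to 3.28, while fos in muscle runs from 1.78 to 5.26 and fos in gonad from -0.02 to 1.82.

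Whether the sex difference itself changed between tissues was tested among brain, gonad and muscle, a comparison added after the data were seen. For id3-a the male minus female difference was larger in gonad than in brain by 2.86 ± 0.48 (adjusted p = 0.0013) and larger in gonad than in muscle by 2.76 ± 0.49 (adjusted p = 0.0013). The features that passed made up 29.5% and 32.2% of all. The other 3 genes did not pass in any of these comparisons. For Gadd45g the difference of gonad over brain was 2.56 ± 0.99 (adjusted p = 0.067) and for Klf16 it was 2.24 ± 0.92 (adjusted p = 0.08). Between muscle and brain 0 of the 4 passed in edgeR, with 1, Klf16, below an unadjusted p of 0.05 (1.97 ± 0.92, adjusted p = 0.14), and 15.7% of all features passed there, 7.69% with the smaller difference in muscle. No test of liver against another tissue was made, because liver chose the genes.

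The tissues were compared next, as averages over both sexes. Each of the 4 genes was higher in brain than in gonad, where 53.1% of all features passed, 26.8% as higher in brain and 26.3% as lower. The log2 difference was 4.14 ± 0.72 for fos (adjusted p = 3.2e-04), 3.48 ± 0.54 for Gadd45g (adjusted p = 1.4e-04), 2.56 ± 0.25 for id3-a (adjusted p = 4.3e-06) and 2.35 ± 0.47 for Klf16 (adjusted p = 0.001). In fold terms that was 17.6 for fos, 11.2 for Gadd45g, 5.89 for id3-a and 5.09 for Klf16. Each passed under every alternative tried.

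Gonad was also lower than muscle for fos (-3.55 ± 0.70, adjusted p = 7.9e-04), Gadd45g (-3.71 ± 0.54, adjusted p = 7.9e-05) and Klf16 (-1.62 ± 0.47, adjusted p = 0.0098). Here 55.8% of all features passed, 28.6% as higher in gonad and 27.2% as lower. The Klf16 call ended with scaling by fragment totals (-0.36, adjusted p = 0.53), in limma on log2(FPKM + 1) (-0.18, adjusted p = 0.73) and log2(FPKM + 0.1) (-0.21, adjusted p = 0.74), and without female muscle 1 (-1.04, adjusted p = 0.093). For id3-a the difference was -0.45 ± 0.24 (adjusted p = 0.13). By fragment totals it turned to 0.88 (adjusted p = 0.02), below the median of all features, 1.36. This average joins opposite directions in males and females. Male gonad, at 46.11 and 42.21 FPKM, lay above male muscle, at 6.03 and 12.77 FPKM. Female gonad, at 4.55 and 4.72 FPKM, lay below female muscle, at 6.6 and 5.5 FPKM. The directions were the same in TMM-scaled counts, and gonad against muscle was not tested within a sex. The features higher and lower in gonad than in muscle were 4659 and 4422 with TMM, and 9874 and 1314 by fragment totals.

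Between brain and muscle only id3-a passed among the 4, higher in brain by 2.11 ± 0.25 (adjusted p = 2.3e-05), where 41.9% of all features passed, 21.5% as higher in brain and 20.3% as lower. Its libraries of either sex were higher in brain than in muscle. For fos the difference was 0.59 ± 0.63 (adjusted p = 0.49), for Klf16 0.72 ± 0.46 (adjusted p = 0.22) and for Gadd45g -0.23 ± 0.48 (adjusted p = 0.74). Under limma on log2(FPKM + 1) fos passed as well (1.58, adjusted p = 0.04), and it passed without female muscle 2 (1.89, adjusted p = 0.036). Klf16 passed with scaling by fragment totals (1.45, adjusted p = 0.021). By those totals the features higher and lower in brain were 7329 and 1361, against 3505 and 3309 with TMM, and for brain against gonad they were 2504 and 6156, against 4367 and 4277.

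The spread within a group was wide for some of the genes. In female muscle, fos differed 9.81-fold between libraries and was higher in library 2, while Gadd45g, Klf16 and id3-a were higher in library 1. In male muscle all 4 genes were higher in library 2, by 1.94-fold for fos, 2.37-fold for Gadd45g, 3.22-fold for Klf16 and 2.12-fold for id3-a. Male muscle and male liver were the 2 of 8 groups in which the 4 genes shared the higher library. Any pair of Gadd45g, Klf16 and id3-a had the same higher library in 6 of 8 groups, and fos had the same as each of them in 4 of 8.

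The likeness of patterns was measured by Pearson's r of log2(FPKM + 1) over the 16 libraries, given as a description. The libraries share groups, and may share fish, so the points are not independent. Because the liver values chose the 4 genes, a likeness among them over all libraries is in part built in. Over the 12 libraries without liver r was 0.81 for fos with Gadd45g, 0.76 for Gadd45g with Klf16 and 0.69 for fos with Klf16. The id3-a feature had 0.52 with fos, 0.58 with Gadd45g and 0.70 with Klf16. By r over all 16 libraries, fos, Gadd45g and Klf16 ranked 751, 421 and 297 among all features in likeness to id3-a. In likeness to fos, Gadd45g, Klf16 and id3-a ranked 3, 13 and 188.

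Over all 16 libraries the named feature most like fos was a junb (TRINITY_DN126792_c2_g1, r = 0.92, and 0.91 without liver), a Jun partner of Fos in AP-1. It stood at 316.73 and 195.89 FPKM in male liver against 18.73 and 55.61 in female liver, and at 117.68 and 258.97 in male muscle against 27.86 and 20.52 in female muscle. Its sex difference passed in no tissue in edgeR (adjusted p = 0.055 in liver, 0.97 in brain, 0.98 in gonad and 0.092 in muscle). Next came PCYT2 (0.89), an enzyme of phospholipid synthesis, then Gadd45g, Rnf223 (0.89) and SLC7A1 (0.86), a carrier of cationic amino acids. For Gadd45g the nearest were 2 features named PCYT2 (0.93 and 0.92), Pdk2 (0.90), CREM (0.89) and fos. For Klf16 they were Fkbp5 (0.93), zbtb16a (0.93), TFE3 (0.92), SLC7A1 (0.92) and rnf19b (0.91). For id3-a they were FRYL (0.94), FAM114A1 (0.93), mao (0.91), PICALM (0.91) and Plk2 (0.91). Without liver these r lay between 0.75, for SLC7A1 with fos, and 0.96, for mao with id3-a.

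The closest relatives of the 4 genes in the table did not pass in liver. A GADD45A feature from the same assembled cluster as Gadd45g (TRINITY_DN127067_c2_g3) read 8.27 and 27.42 FPKM in male liver against 8.88 and 11 in female liver, a log2 difference of 0.31 (adjusted p = 0.78). In gonad it was higher in males by 2.99 ± 0.63 (adjusted p = 0.0019). The other GADD45A feature did not pass in any tissue, at -1.40 in liver, 0.26 in brain, -0.49 in gonad and 0.85 in muscle. GADD45B was lower in male than in female gonad by -3.26 ± 0.60 (adjusted p = 9.0e-04), at 8.92 and 5.9 against 18.21 and 69.76 FPKM, opposite in sign to Gadd45g there. Features of 1 assembled cluster resemble each other in sequence, so reads may have been split between them.

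ID1, assembled in the same cluster as id3-a, was at 14.47 and 19.68 FPKM in male liver and at 16.04 and 5.09 FPKM in female liver (0.34, adjusted p = 0.77), where the libraries overlapped. In gonad ID1 was higher in males by 4.14 ± 0.71 (adjusted p = 5.4e-04), at 116.21 and 94.61 against 1.55 and 6.03 FPKM, the same direction as id3-a. In brain it was lower in males by -2.14 ± 0.64 (adjusted p = 0.02). Of the Krueppel-like relatives, a KLF4 feature (TRINITY_DN138537_c1_g1), counted in both the Krueppel-like and the immediate early list, was lower in male than in female gonad by -6.54 ± 0.99 (adjusted p = 2.6e-04), where Klf16 was higher. In liver it read 1.2 and 0.46 FPKM in males and 12.28 and 2.32 FPKM in females (-3.52, adjusted p = 0.051). The other KLF4 feature (TRINITY_DN128162_c0_g2) was higher in male than in female gonad (2.57, adjusted p = 0.017) and stood at 0.29 in liver (adjusted p = 0.84). KLF13 had a log2 difference of 1.76 ± 0.41 in gonad (adjusted p = 0.0037) and of 1.16 ± 0.42 in brain (adjusted p = 0.04), higher in males in both, and stood at -0.12 in liver (adjusted p = 0.89).

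Wider lists of genes from the same pathways were then counted, with the 4 genes left out. Of 17 features of immediate early transcription factors, 3 were higher and 0 lower in male liver, where 1.33% of all features passed as higher and 1.46% as lower. Their median log2 difference was 1.32, against -0.03 for all features. The 3 were a Jun (TRINITY_DN135362_c3_g8, 4.61 ± 0.80, adjusted p = 0.011) and 2 features named junb (TRINITY_DN126792_c2_g7, 4.37 ± 0.85, adjusted p = 0.02, and TRINITY_DN126792_c2_g4, 2.99 ± 0.54, adjusted p = 0.014). The 17 features carried 11 names, and the 2 junb features came from the same assembled cluster. The count is therefore of features, not of independent genes. The Jun feature read 37.16 and 18.64 FPKM in male liver against 0.87 and 1.11 in female liver. Other Jun features of its cluster did not pass in edgeR (3.40, adjusted p = 0.059, and 2.85, adjusted p = 0.14). In the junb cluster, another junb (2.65, adjusted p = 0.055) and a JUND (-1.38, adjusted p = 0.23) did not pass either. In edgeR the count was 0 without female liver 1 and 0 without male liver 1, with 8 and 6 below an unadjusted p of 0.05. Without female liver 2 it was 5, and DESeq2 called 8. All features that passed numbered 453, but 41 without female liver 1, 40 without male liver 1, 162 without male liver 2 and 2764 without female liver 2.

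Other immediate early genes did not pass in liver. EGR1, a zinc finger factor often measured beside Fos, read 73.81 and 85.25 FPKM in male against 61.68 and 182.97 in female liver (-0.65, adjusted p = 0.41). It was lower in males in brain (-3.85 ± 0.51, adjusted p = 0.002) and in gonad (-4.05 ± 0.52, adjusted p = 9.7e-05). Fosl2, another Fos family protein, read 73.89 and 27.84 against 4.35 and 6.84 FPKM in liver and did not pass (3.03, adjusted p = 0.11), and in gonad it was higher in males by 2.99 ± 1.04 (adjusted p = 0.03). The list as a whole had 0 higher and 3 lower in male brain, 4 higher and 5 lower in male gonad, and 1 higher and 0 lower in male muscle, a JUND. Of all features, 18.4% and 21.4% passed so in brain, 23.8% and 23.3% in gonad, and 1.75% and 1.2% in muscle. That JUND read 0.41 and 0.45 FPKM in female muscle, near the lowest value of the table, 0.31. The other JUND feature did not pass in muscle (1.03, adjusted p = 0.53 in edgeR). The muscle count of the list was 6 in DESeq2 and 6 by fragment totals. With the muscle libraries alone edgeR called 0, with 7 below an unadjusted p of 0.05. Between the male liver libraries, 14 of the 17 listed features were higher in library 1, with a median log2 difference of 1.13.

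The list of early feedback regulators holds inhibitors of kinase and cytokine signals beside other genes, such as PIM and PLK kinases and MCL1. Of its 49 features, 5 were higher and 0 lower in male liver, with a median of 0.58. Of all features, 1.33% passed there as higher and 1.46% as lower, and DESeq2 called 1686. They were 2 features of DUSP1, a phosphatase that switches off MAP kinases (3.88 ± 0.60, adjusted p = 0.0074, and, named dusp1-a, 3.47 ± 0.51, adjusted p = 0.0064), SOCS3 (3.79 ± 0.79, adjusted p = 0.029), CISH (3.05 ± 0.59, adjusted p = 0.019) and TNFAIP3 (2.18 ± 0.50, adjusted p = 0.039). SOCS3 and CISH inhibit cytokine receptors. Other TNFAIP3 features of the same assembled cluster did not pass in liver by edgeR (2.33, adjusted p = 0.052, and 2.27, adjusted p = 0.098). The 49 features carried 32 names, and the DUSP1 features came from the same assembled cluster, so the counts are not of independent genes. The DUSP1 feature read 58 and 69.83 FPKM in male against 1.7 and 5.63 in female liver, and both male libraries were alike. In edgeR the count was 0 without female liver 1 (19 below an unadjusted p of 0.05), 2 without male liver 1 and 13 without female liver 2, and DESeq2 called 16. In brain 10 were higher and 7 lower in males, where 18.4% and 21.4% of all features passed so. In gonad 14 were higher and 8 lower, where 23.8% and 23.3% of all passed. In muscle 3 (Btg3, SOCS3 and TRIB1) were higher and 0 lower, where 1.75% and 1.2% of all passed. The muscle count was 10 by fragment totals and 1 without male muscle 2. In edgeR it was 0 without female muscle 1 and 0 without female muscle 2, with 8 and 13 below an unadjusted p of 0.05.

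**Figure D4:**
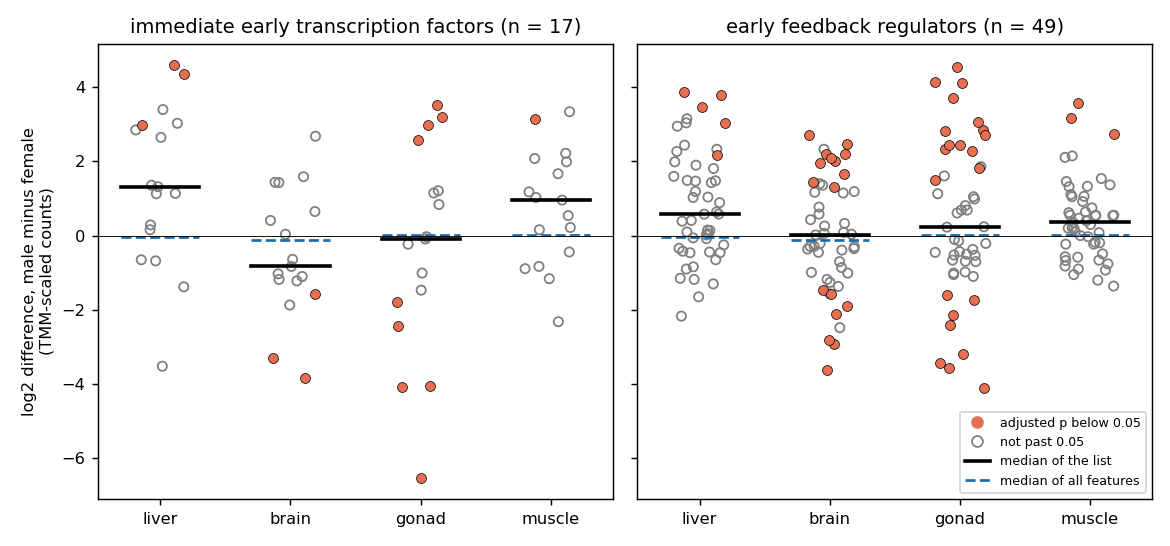
Log2 difference, male minus female (TMM-scaled counts), of each listed feature by tissue, with the 4 genes left out; filled points passed an adjusted p of 0.05 in edgeR, solid bars are list medians and dashed bars the medians of all features. In liver the medians are 1.32 and 0.58 against -0.03 for all features, and in brain the immediate early factors have a median of -0.83 against -0.12.

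The remaining lists had few calls in liver, where 1.33% of all features passed as higher and 1.46% as lower. Of 37 features of the GADD45 family and stress signalling, 1 was higher and 0 lower in male liver, ddit4, an inhibitor of the growth kinase mTORC1 (4.55 ± 0.66, adjusted p = 0.0064). It read 394.27 and 271.73 FPKM in male against 10.37 and 14.84 in female liver, and it was also higher in male muscle (2.84 ± 0.62, adjusted p = 0.027). Of 54 features of Ras-ERK kinases and SRF and CREB factors, 1 was higher, CREM (3.14 ± 0.60, adjusted p = 0.019), a factor that responds to cyclic AMP. Of 19 hepatic acute stress genes 2 were higher, the kinase sgk1 (3.96 ± 0.91, adjusted p = 0.039) and the chaperone hsp70 (3.87 ± 0.96, adjusted p = 0.049), with a list median of 1.14. Male liver 1 was the higher male library for sgk1, at 566.95 against 225.9 FPKM, and the lower for hsp70, at 243.86 against 803.77 FPKM. Without female liver 1, edgeR called 0 in each of these 3 lists, with 9, 4 and 6 below an unadjusted p of 0.05. Without male liver 1 it called 0 of the Ras-ERK and 0 of the hepatic stress features, with 10 and 8 below that p.

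Of 14 Krueppel-like and Sp factors 0 passed in liver by edgeR, with 1 below an unadjusted p of 0.05 and 1 called by DESeq2. Of 20 features of the ID family, E proteins and BMP signalling 0 passed in liver, with 3 below an unadjusted p of 0.05 and 0 called by DESeq2. The medians in liver were 0.08 for the Krueppel-like and Sp list, which holds relatives of Klf16, and 0.05 for the ID list, against -0.03 for all features. In gonad 23.8% of all features passed as higher in males and 23.3% as lower. The same lists had 8 higher and 2 lower, and 7 higher and 5 lower, in males there. The stress signalling list had 12 higher and 14 lower in male gonad, the Ras-ERK list 18 and 2, and the hepatic stress list 12 and 2. With a gonad library left out the totals were lower for some lists, for example 5 Krueppel-like and 16 stress signalling features without female gonad 1, 10 Ras-ERK features without female gonad 2 and 9 hepatic stress features without male gonad 2.

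The 54 Ras-ERK features carried 21 names, and many were Crebbp or Ep300 features, several from the same assembled clusters. Counts of that list are therefore of features, not of independent genes. In male brain the higher and lower counts were 6 and 2 for stress signalling, 3 and 2 for Krueppel-like factors, 7 and 4 for the ID list, 27 and 2 for the Ras-ERK list and 7 and 3 for the hepatic stress list, where 18.4% of all features passed as higher and 21.4% as lower. They were lower with a brain library left out. Without female brain 1 the totals were 3 for stress signalling, 8 for the Ras-ERK list and 1 for the hepatic stress list, and edgeR called 0 Krueppel-like and 0 ID features, with 3 and 7 below an unadjusted p of 0.05. Without male brain 1 they were 5, 25 and 7, with 0 Krueppel-like features in edgeR (5 below that p) and 2 of the ID list. Immediate early factors and feedback regulators had 1 and 4 without female brain 1. In male muscle 1.75% of all features passed as higher and 1.2% as lower. The higher and lower counts there were 1 and 0 for stress signalling and 2 and 0 for the hepatic stress list, Fkbp5 (3.74 ± 0.84, adjusted p = 0.032) and CEBPD (2.33 ± 0.57, adjusted p = 0.045). Without female muscle 2 edgeR called 0 in both lists, with 6 and 4 below an unadjusted p of 0.05. The other 3 lists had 0 in muscle by edgeR, with 2, 4 and 9 below an unadjusted p of 0.05 and 1, 2 and 2 called by DESeq2 for Krueppel-like, ID and Ras-ERK features.

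Some measures of the libraries differed between the sexes beside these genes and others overlapped, and their part in the results was not tested. The summed level of 2 hemoglobin features was 118 to 175 FPKM in male and 2799 to 9873 FPKM in female liver. It also split in brain, at 33.6 to 872 FPKM in males against 7143 to 17408 in females, and in muscle, at 123 to 693 against 2909 to 8106. In liver the pancreatic protease CTRL was at 3.69 to 44.2 FPKM in males against 254 to 442 in females. There, 6 leukocyte features summed to 919 to 1933 FPKM in males against 996 to 7748 in females, which overlapped. In gonad the leukocyte sum was 607 to 4530 FPKM in males against 55.8 to 171 in females. In liver, the summed level of 17 endothelial and stellate features was 536 to 542 FPKM in males and 541 to 711 in females, that of 4 neuron and glia features 12 to 34.8 against 8.97 to 35.3, and that of 6 muscle features 223 to 230 against 254 to 368. The 8 hepatocyte features summed to 82509 to 87881 FPKM in male and 39621 to 80185 in female liver, and to at most 160 FPKM in any other library, so liver carried its own markers. Muscle markers summed to 42826 to 83774 FPKM in male and 263176 to 287366 in female muscle, and at most 1022 elsewhere. Neuron and glia markers summed to 316 to 331 FPKM in male and 1553 to 2181 in female brain, and at most 88.6 elsewhere.

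Gonad had few markers in the table. The 2 testis features summed to 101 to 113 FPKM in male and 81.8 to 87.4 in female gonad, and the 2 ovary features, both CD9, to 47.3 to 63.3 against 206 to 223. Of the CD9 features, 1 passed as higher and 1 as lower in male gonad. Their sum was higher in brain, at 253 to 631 FPKM in males and 700 to 763 in females, so CD9 did not mark ovary here. Genes of mitochondrial DNA took 1.09 to 1.3% of listed counts in male and 1.26 to 7.3% in female liver, and 2.42 to 2.44% in male against 19.2 to 24.8% in female brain. Listed counts per library ran from 5134221 to 12972574. Each feature stood at 0.31 FPKM or more in every library, so genes silent in a tissue or sex are outside the table. In bulk tissue, fewer cells that express a gene and less RNA per cell cannot be told apart.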

How the data were processed

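The expected counts and the FPKM values of each assembled gene were estimated by the authors with RSEM, per the submitters' processing notes and the file headers. The feature identifiers carry the name of the Trinity assembler. Its version and settings, the aligner, the RSEM version and the strand setting are not recorded in the labels or the table. Values came from 1 deposited table. Its 16 further value columns belong to no listed sample and were not used. The counts hold fractions (94.12% or more of a library's values are whole, exactly as printed) and were rounded.

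Counts were tested with edgeR 4.0.16 (quasi-likelihood F test, two-sided, TMM factors 0.6226 to 1.845), 1 mean per group over 16 libraries, with 8 residual degrees of freedom. All 16270 features met the filter of 1 FPKM in 2 or more libraries. Alternatives used DESeq2 1.42.0, limma 3.58.1, other scalings and filters, replicate blocks and left-out libraries. The 4 genes and the lists were chosen with earlier results of these data known. Genes were named by rule: the 4 genes, listed features past the threshold (up to 10 by size) and the 5 most alike named features. EGR1 and Fosl2 in liver, ID1 and the GADD45 and Krueppel-like relatives outside that rule were chosen after their values were seen. No sequence of this fish was used here. No 2 libraries held identical counts.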

Additional observations from a re-analysis of the deposited data

Results flagged for a closer look

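The sex difference of id3-a was not the same in each tissue, by the test of the difference itself in edgeR, a comparison added after the data were seen. As male minus female it was larger in gonad than in brain by 2.86 on the log2 scale (adjusted p = 0.0013) and larger in gonad than in muscle by 2.76 (adjusted p = 0.0013). Over the settings tried the first ran from 2.46 to 2.99 and the second from 2.52 to 2.98, and both passed under each of them.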

How the results depend on the processing

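Counts of features that passed were most dependent on the setting in liver and muscle, and the cause was not tested. In liver 453 passed, against 284 with scaling by fragment totals, 1686 in DESeq2, 199 and 209 in limma on log2(FPKM + 1) and log2(FPKM + 0.1), and 1 in a fit of the liver libraries alone. In muscle 481 passed, against 2143 by fragment totals, 1447 in DESeq2, 1437 and 1485 in limma, and in edgeR 0 in a fit of the muscle libraries alone, where 2387 were below an unadjusted p of 0.05. With 1 library left out the counts ran from 40 to 2764 in liver, 1774 to 3484 in brain (6471 with all), 4905 to 6050 in gonad (7661 with all) and 37 to 410 in muscle. A lone library was then assumed to vary like the other groups. Counts for the tissue contrasts stayed within 1.5 times under each alternative run.

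The labels do not say what a replicate number marks, and there are only 2 numbers. The deviations of same-numbered libraries correlated at r of -0.04 to 0.19 between the sexes of a tissue. Between tissues r was 0.19 to 0.59 in males and -0.31 to 0.23 in females. For pairs that differed in both sex and tissue it was -0.09 to 0.31. Whether same-numbered male libraries came from the same fish was not tested. With a replicate block by number the counts were 690 in liver and 685 in muscle, and with a block within sex 758 and 813. No call of the 4 genes changed under either block.

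Signs turned for differences that had not passed. For id3-a, brain gave 0.39 by fragment totals, 0.34 and 0.35 in limma and -0.37 to 0.17 with 1 library left out (0.17 without male brain 1). Muscle gave 0.61, 0.49 and 0.54, and -0.34 to 0.05 with 1 left out (0.05 without male muscle 1). Gonad minus muscle, an average of opposite directions in males and females, gave 0.88, 0.94 and 0.97. For Gadd45g, brain minus muscle gave 0.55, 0.59 and 0.60, and the sex difference in brain -0.14 to 0.38 with 1 left out (-0.14 without female brain 1). For fos, gonad gave -0.02 to 1.82 (-0.02 without male gonad 2). The filter on low values removed no feature, so omitting it changed nothing. With 2 libraries a group, differences as large as 2.66 ± 0.95 for fos and 1.35 ± 0.70 for Gadd45g in muscle did not pass.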
